A study of Mus musculus with 12 samples.

Results

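The 6 genes described here encode the receptors through which mouse macrophages recognise immunoglobulin G, together with their signalling chain: Fcgr1, Fcgr2b, Fcgr3, Fcgr4, Fcer1g and Fcgrt. They were taken by name from a table of 15555 genes, and all 6 were present. The macrophages were grown from mouse bone marrow, and RNA was sequenced in 12 libraries. WT (wild type), Cbl-/-, Cbl-b-/- and mice lacking both genes (DKO, the double knockout) gave 3 libraries each. Marrow cells of every genotype were cultured to day 9 with L-cell supernatant as the source of CSF-1, the macrophage growth factor, and adherent cells were collected. The labels give no strain, sex or animal age, and say that RNA was pooled in equal amounts. Separate animals are not stated for the replicates, so the p-values measure no more than the spread among libraries, possibly a technical one.

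Fc gamma receptors bind the constant part of IgG on coated particles and immune complexes. In the mouse, Fcgr1, Fcgr3 and Fcgr4 encode activating receptors that depend on the common gamma chain, encoded by Fcer1g, whose immunoreceptor tyrosine-based activation motif (ITAM) is phosphorylated by Src-family kinases and then recruits the kinase Syk. Fcgr2b encodes the inhibitory receptor, whose tail carries an immunoreceptor tyrosine-based inhibition motif (ITIM) that recruits the lipid phosphatase SHIP1. Fcgrt encodes the heavy chain of FcRn, which pairs with beta-2-microglobulin and returns IgG from endosomes to the surface. The proteins Cbl and Cbl-b attach ubiquitin to activated tyrosine kinases, and the design compares macrophages that lack either or both.

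Total counts were 21048103 to 43946503 per library. DKO 3 stood apart from DKO 1 and DKO 2, with a chi-square per degree of freedom of 44.7 and 55.3, where the other 10 pairs within a genotype had 3.93 to 12.3. Cbl fell in Cbl-/- (51.5 ± 2.3 against 140 ± 3.4 CPM in WT; SD, n = 3), where CPM is the gene's count divided by the scaled library total in units of 1e+06 counts. In the libraries labelled DKO Cbl was at 37.6 ± 3.1 CPM. Cblb was at 52.8 ± 2.9 CPM in the libraries labelled Cbl-b-/- against 59.4 ± 3.5 in WT. These ranges did not overlap, but by edgeR's test the difference did not pass (adjusted p = 0.46). Cblb rose in the libraries labelled DKO (71.7 ± 3.2 CPM, adjusted p = 0.0027) and in Cbl-/- (68.5 ± 0.69 CPM, adjusted p = 0.048). The call in Cbl-/- was lost without any one of the WT or Cbl-/- libraries. Against Cbl-/-, Cblb was lower with the label Cbl-b-/- (log2 fold change -0.37, adjusted p = 0.0011) and did not differ detectably with the label DKO (0.07, adjusted p = 0.46). The Cblb counts therefore do not check these labels, since an allele may be disrupted without loss of reads. Every direction drawn from the libraries labelled Cbl-b-/- or DKO rests on the label. All 12 macrophage markers listed, among them Csf1r, Cd68 and Adgre1, had a mean of at least 1 CPM in each genotype.

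The activating receptors moved apart in the libraries labelled DKO. Fcgr1 and Fcgr4 rose 1.76-fold and 1.97-fold over WT, while Fcgr3 fell 1.96-fold. The FcRn heavy chain gene Fcgrt fell 2.10-fold and the shared chain gene Fcer1g 1.24-fold. The inhibitory receptor gene Fcgr2b was 1.36-fold higher in Cbl-/- and 1.54-fold higher in the libraries labelled Cbl-b-/-, but was not detectably changed in those labelled DKO. Of the 6 genes, 3 passed the test in Cbl-/- against WT (1 higher, 2 lower), where 9.87% of all 12671 genes tested passed (5.68% higher, 4.19% lower). With the label Cbl-b-/-, 1 of 6 passed (higher), against 0.489% of all genes (0.395% higher, 0.0947% lower). With the label DKO, 5 of 6 passed (2 higher, 3 lower), against 35.4% of all genes (19.1% higher, 16.3% lower). The median log2 fold change of the 6 was 0.13, -0.02 and -0.11 in these comparisons, beside -0.01, 0.00 and 0.00 over all genes tested. Without DKO 3 the same 5 genes passed in DKO against WT, with Fcgr1 at 0.80, Fcgr3 at -0.97 and Fcer1g at -0.25 (adjusted p = 2.5e-07 for Fcgr4 and 4.7e-08 for Fcgrt), and Fcgr2b was at -0.02 (adjusted p = 0.92). The 3 comparisons share the WT libraries. In bulk RNA, fewer cells of a type and less RNA per cell cannot be told apart.

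**Figure D1:**
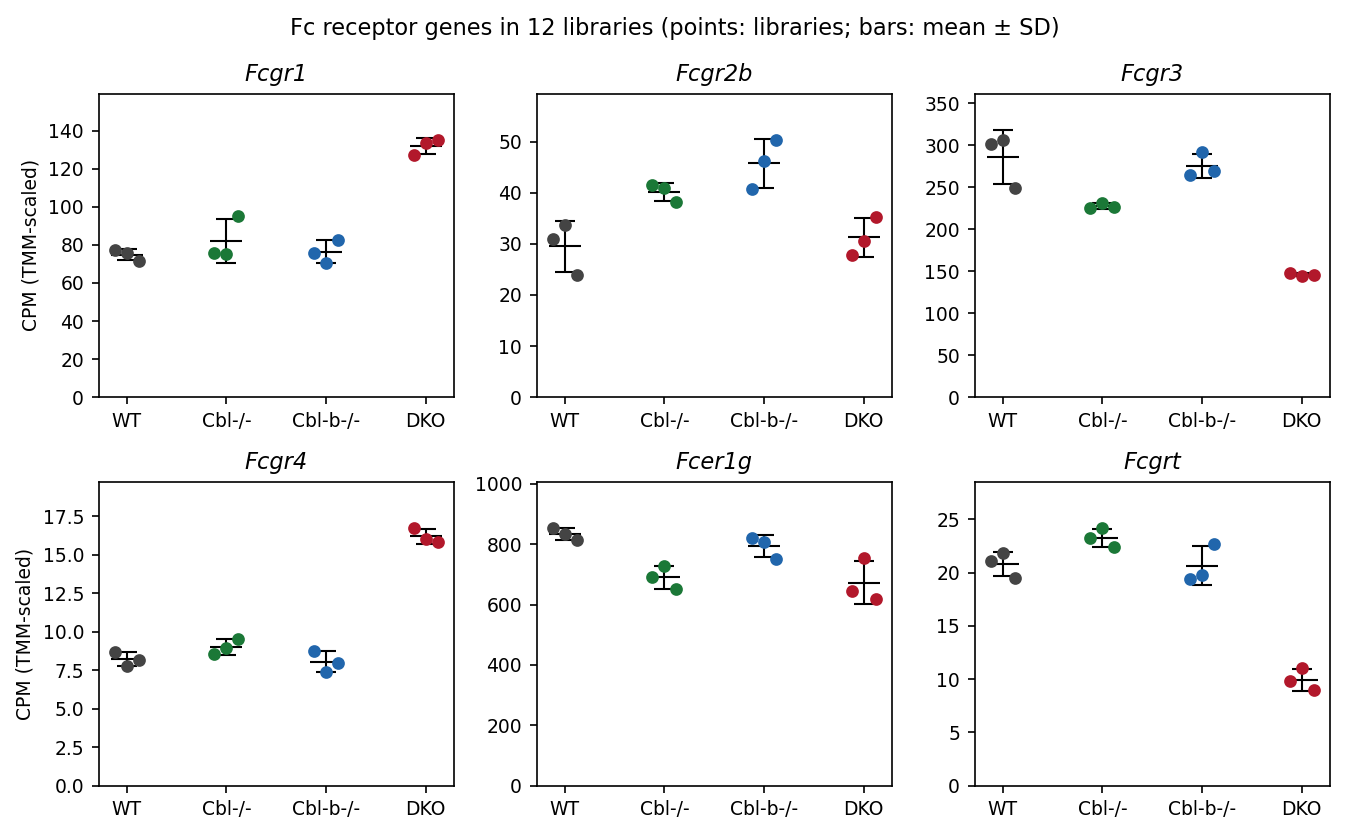
Level of each gene in every library, in TMM-scaled CPM (vertical axis, from 0), by genotype (horizontal axis). Points are libraries and bars give the mean ± SD of 3. The libraries labelled DKO lie above all others for Fcgr1 and Fcgr4 and below all others for Fcgr3 and Fcgrt, while Fcgr2b lies above WT and DKO in both single-knockout groups, which overlap each other.

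Per length of transcript, the signalling chain was far more abundant than the receptors it serves. In WT, Fcer1g had 953 ± 23 CPM per kilobase of merged exons (SD, n = 3), Fcgr3 165 ± 18, Fcgr1 28.9 ± 1.2, Fcgrt 9.90 ± 0.55, Fcgr4 6.54 ± 0.35 and Fcgr2b 5.10 ± 0.86. No neighbours in this order overlapped in WT. Fcer1g, Fcgr3 and Fcgr1 held the first 3 places in every genotype. Under the label DKO, Fcgr4 (12.9 ± 0.37) moved above Fcgrt (4.72 ± 0.49), whose range there overlapped that of Fcgr2b (5.40 ± 0.65). With the label Cbl-b-/-, Fcgr2b (7.91 ± 0.83) lay above Fcgr4 (6.41 ± 0.55) without overlap, the reverse of the order in WT. In Cbl-/- the ranges of Fcgr4 (7.18 ± 0.40) and Fcgr2b (6.94 ± 0.31) overlapped. The lowest places depend on the length used: with the longest transcript of each gene, Fcgr2b lay above Fcgr4 in WT (8.33 ± 1.4 against 6.54 ± 0.35).

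Fcgr1 encodes the high-affinity IgG receptor, known as a gene induced by interferon gamma. It lies on chromosome 3 at 96282909 to 96293969 (minus strand, GRCm38; ENSMUSG00000015947). The 250 bases before its start are shown because this window holds a match to GAS, the interferon gamma-activated site, and Fcgr4 and Fcgr3 follow as receptors that moved with it and against it. Sequences are RefSeq's, build GRCm38.p6, 5′ to 3′ on the gene's strand, and capitals mark matches to the motifs given after them.
Fcgr1, chr3:96293970-96294219, minus strand: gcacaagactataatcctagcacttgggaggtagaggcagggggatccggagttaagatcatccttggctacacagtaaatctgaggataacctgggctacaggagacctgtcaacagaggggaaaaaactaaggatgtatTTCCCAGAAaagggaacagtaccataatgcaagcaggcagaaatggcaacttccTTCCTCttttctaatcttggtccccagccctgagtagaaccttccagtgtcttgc
Fcgr4, chr1:171018676-171018925, plus strand: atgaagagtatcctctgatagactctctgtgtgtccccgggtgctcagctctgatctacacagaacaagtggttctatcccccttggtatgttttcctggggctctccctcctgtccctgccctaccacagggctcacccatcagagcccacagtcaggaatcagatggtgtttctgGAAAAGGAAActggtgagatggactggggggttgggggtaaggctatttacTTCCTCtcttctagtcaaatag
Fcgr3, chr1:171059404-171059653, minus strand: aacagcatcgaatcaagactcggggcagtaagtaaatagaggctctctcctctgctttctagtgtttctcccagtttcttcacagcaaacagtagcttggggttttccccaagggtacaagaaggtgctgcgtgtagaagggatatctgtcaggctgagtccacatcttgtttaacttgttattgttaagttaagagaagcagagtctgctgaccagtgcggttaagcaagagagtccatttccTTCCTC

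The patterns searched on both strands were TTCNNNGAA (GAS), GAAA, any 2 bases, then GAAA (ISRE, the site of interferon regulatory factors) and GAGGAA (the core bound by PU.1, the macrophage lineage factor). Counting back from -1 at the base before the start, Fcgr1 had a GAS match at -109 to -101 and a PU.1 core on the other strand at -55 to -50. Fcgr4 had an ISRE match at -73 to -64 and a PU.1 core at -22 to -17. Fcgr3 had a PU.1 core at -6 to -1, which lies at -15 to -10 from another RefSeq start of this gene. The matches of different motifs did not overlap. Fcgr2b, Fcer1g and Fcgrt held no match to these 3 patterns in their windows. Over the 32851 RefSeq windows of this length, 7.02% held a GAS match, 2.98% an ISRE match and 23.3% a PU.1 core. The windows used for Fcgr3 and Fcgr2b lie wholly inside the spans that GENCODE gives for these genes. They are therefore not the stretches before the genes' outermost ends. These matches describe letters and do not show binding.

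Fcgr1 was at 77.3, 76.0 and 71.5 CPM in WT libraries 1 to 3 and at 75.8, 75.0 and 95.3 in Cbl-/-. The libraries labelled Cbl-b-/- had 75.9, 70.7 and 82.8, and those labelled DKO 127, 134 and 135. The 3 libraries labelled DKO lay above the other 9, which overlapped each other. The log2 fold change against WT was 0.82 in the libraries labelled DKO (SE 0.08, adjusted p = 1.1e-06). It was 0.13 in Cbl-/- (95% interval -0.04 to 0.31, adjusted p = 0.4) and 0.03 in the libraries labelled Cbl-b-/- (-0.15 to 0.20, adjusted p = 0.99), so neither passed.

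Fcgr4 encodes a receptor of intermediate affinity for IgG2a and IgG2b, carried by monocytes, macrophages and neutrophils. It lies on chromosome 1 at 171018920 to 171029761 (plus strand; ENSMUSG00000059089). Its level was 8.68, 7.80 and 8.15 CPM in WT and 8.55, 8.92 and 9.56 in Cbl-/-. The libraries labelled Cbl-b-/- had 8.77, 7.39 and 7.99, and those labelled DKO 16.7, 16.0 and 15.9. Fcgr4 thus followed the order seen for Fcgr1, with the libraries labelled DKO above the rest and no separation among the others. The log2 fold change was 0.98 in the libraries labelled DKO (SE 0.09, adjusted p = 6.5e-07), 0.13 in Cbl-/- (-0.07 to 0.34, adjusted p = 0.48) and -0.03 in those labelled Cbl-b-/- (-0.24 to 0.18, adjusted p = 0.99).

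Fcgr3 encodes the low-affinity activating receptor for immune complexes, which macrophages share with neutrophils, mast cells and natural killer cells. It lies at 171051174 to 171064935 on chromosome 1 (minus strand; ENSMUSG00000059498). WT libraries had 302, 306 and 249 CPM and Cbl-/- 225, 231 and 226. The libraries labelled Cbl-b-/- had 265, 291 and 269 and those labelled DKO 148, 145 and 145.5. The order therefore ran from WT and Cbl-b-/-, which overlapped, through Cbl-/- to DKO, each of the last 2 apart from the group above it. Against WT the log2 fold change was -0.33 in Cbl-/- (SE 0.07, adjusted p = 0.0046) and -0.97 in the libraries labelled DKO (SE 0.07, adjusted p = 2.3e-08). In those labelled Cbl-b-/- it was -0.06 (-0.20 to 0.09, adjusted p = 0.97).

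Fcgr2b, the inhibitory receptor gene, lies on chromosome 1 at 170958617 to 170976547 (minus strand; ENSMUSG00000026656). It was at 30.9, 33.7 and 23.98 CPM in WT and at 41.6, 40.9 and 38.2 in Cbl-/-. The libraries labelled Cbl-b-/- had 40.8, 46.2 and 50.4 CPM and those labelled DKO 27.9, 30.6 and 35.3. Both single-knockout groups lay above WT and above DKO, while WT and DKO overlapped. The log2 fold change was 0.44 in Cbl-/- (SE 0.11, adjusted p = 0.02) and 0.63 in the libraries labelled Cbl-b-/- (SE 0.11, adjusted p = 0.015). In those labelled DKO it was 0.08 (-0.16 to 0.32, adjusted p = 0.62). These calls rest on few libraries. The call in Cbl-/- was lost without WT 3 (0.32), Cbl-/- 1 (0.42) or Cbl-/- 2 (0.43). That in the libraries labelled Cbl-b-/- was lost without WT 1 (0.66), WT 3 (0.50), Cbl-b-/- 2 (0.62) or Cbl-b-/- 3 (0.55), and with those genotypes alone in the fit (0.62, adjusted p = 0.096).

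Fcgr2b and Fcgr3 share stretches of sequence. Of the distinct 50-base windows in Fcgr3 transcripts, 166 of 1733 (9.58%) occur in Fcgr2b transcripts, where they are 2.92% of 5685 windows. At even coverage, the shared windows would hold 27.4 CPM of Fcgr3 reads in WT, beside the 29.5 CPM counted for Fcgr2b, and 14.0 CPM in the libraries labelled DKO, beside 31.3. Reads in these windows could be split between the genes or dropped, and how reads with several places were counted is not stated in the labels. The level of Fcgr2b, and its ratios, are uncertain for that reason, and the part of shared reads in its changes was not tested. With transcripts of any other gene on either strand, Fcgr3 included, Fcgr2b shared 395 of its windows (6.95%). Fcgr1, Fcgr4, Fcer1g and Fcgrt shared no 50-base window with transcripts of another gene.

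**Figure D2:**
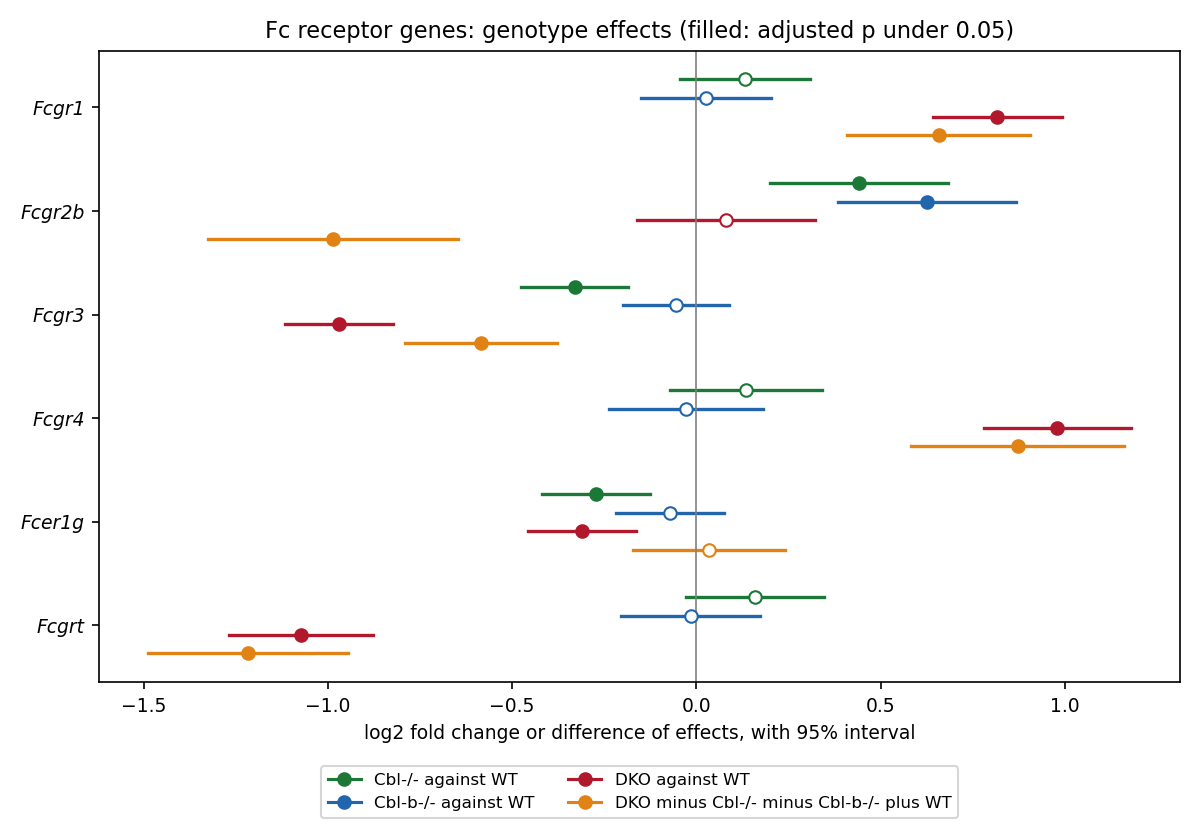
Log2 fold change of each gene against WT, and the departure of DKO from the summed effects of both single knockouts (horizontal axis), with 95% intervals. Filled points have an adjusted p under 0.05. Fcgr1 and Fcgr4 lie right of 0 in DKO (0.82 and 0.98), Fcgr3 and Fcgrt left of it (-0.97 and -1.07), and for Fcgr2b the single knockouts pass while DKO does not.

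The share of each activating receptor changed with the genotype labelled DKO. Within a library, Fcgr3 made up 82.2 ± 1.2% of the summed Fcgr1, Fcgr3 and Fcgr4 level per kilobase in WT (SD, n = 3), 77.2 ± 2.3% in Cbl-/-, 81.5 ± 1.8% in the libraries labelled Cbl-b-/- and 56.8 ± 0.75% in those labelled DKO. Fcgr1 rose from 14.5 ± 0.90% of that sum in WT to 34.4 ± 1.0% in the libraries labelled DKO, and Fcgr4 from 3.29 ± 0.36% to 8.71 ± 0.27%. The 3 libraries labelled DKO lay apart from the other 9 in each of these shares. Such shares do not depend on scaling between libraries, and no test was made of them.

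Per length of transcript, the activating receptors together exceeded the inhibitory receptor in every library. The summed level per kilobase of Fcgr1, Fcgr3 and Fcgr4 was 39.6 ± 3.2 times that of Fcgr2b in WT (39.5, 36.5 and 42.9). It was 24.5 ± 1.7 times in Cbl-/-, 24.7 ± 2.3 in the libraries labelled Cbl-b-/- and 27.6 ± 3.2 in those labelled DKO. All 9 knockout libraries lay below the 3 WT libraries, and the knockout groups overlapped. The single ratios went different ways: Fcgr1 to Fcgr2b was 5.77 ± 0.83 in WT, 4.59 ± 0.86 in Cbl-/- alone, 3.75 ± 0.38 under the label Cbl-b-/- and 9.50 ± 0.85 under DKO, whereas Fcgr3 to Fcgr2b was 32.5 ± 2.2, 18.9 ± 0.83, 20.2 ± 2.0 and 15.7 ± 2.0. For Fcgr4 to Fcgr2b the ratio was 1.31 ± 0.25 in WT, 1.04 ± 0.11 in Cbl-/- and 2.41 ± 0.35 under DKO, but 0.820 ± 0.15 with the label Cbl-b-/-, and it lay below 1 in Cbl-/- 1 (0.949) and in all 3 libraries labelled Cbl-b-/- (0.991, 0.737 and 0.732). That ratio was 0.802 ± 0.15 in WT with the longest transcript as length. With the same length the summed ratio was 30.0 ± 2.4 in WT and 19.7 ± 2.3 in the libraries labelled DKO.

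**Figure D3:**
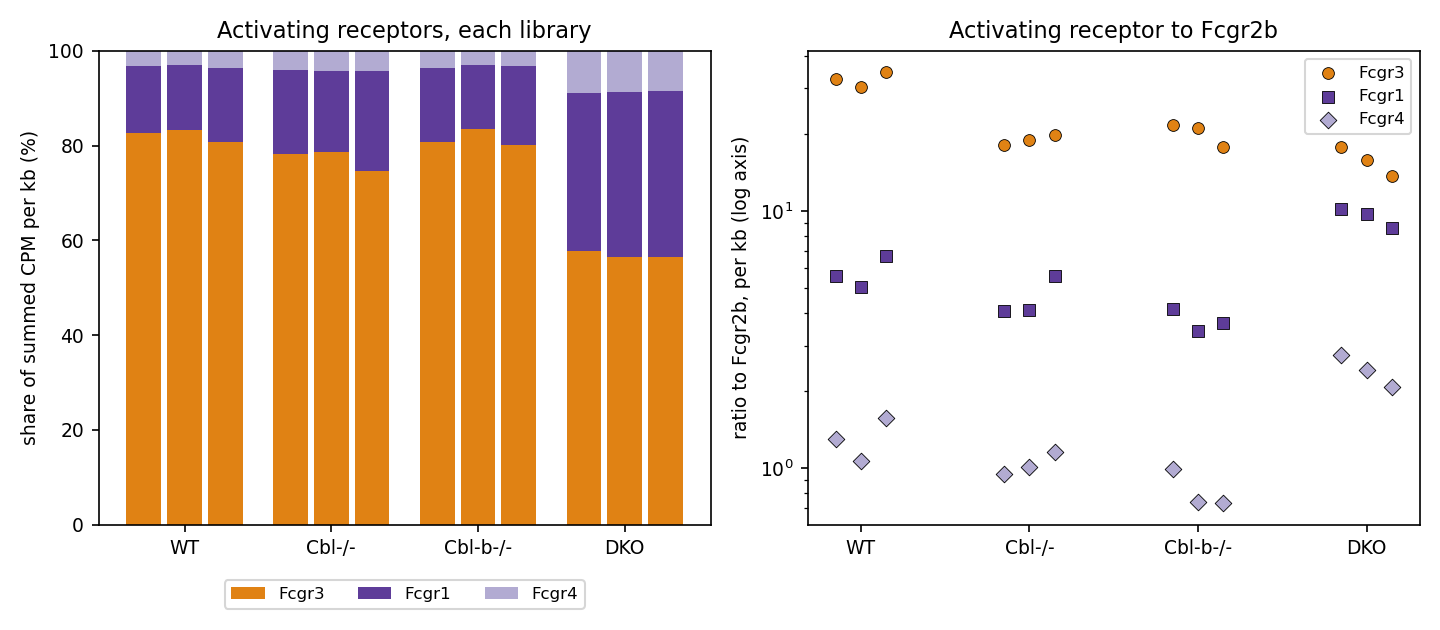
Left, share of Fcgr3, Fcgr1 and Fcgr4 in their summed CPM per kilobase (vertical axis, percent), with 1 bar for each library by genotype. Right, ratio of each activating receptor to Fcgr2b per kilobase in each library (log axis). Fcgr3 takes 56.8 ± 0.75% in the libraries labelled DKO against 82.2 ± 1.2% in WT, and the Fcgr1 and Fcgr4 ratios to Fcgr2b are highest in DKO.

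Fcer1g, the chain that carries the ITAM for all 3 activating receptors, lies on chromosome 1 at 171229572 to 171234365 (minus strand; ENSMUSG00000058715). It was at 852, 835 and 813 CPM in WT and at 690, 729 and 650.5 in Cbl-/-. The libraries labelled Cbl-b-/- had 822, 806 and 751 CPM and those labelled DKO 646, 754 and 617. Cbl-/- and DKO overlapped each other and lay below all WT libraries, and DKO 2 (754) also lay above the lowest library labelled Cbl-b-/-. The log2 fold change was -0.27 in Cbl-/- (SE 0.07, adjusted p = 0.017) and -0.31 in the libraries labelled DKO (SE 0.07, adjusted p = 0.0023), and -0.07 in those labelled Cbl-b-/- (-0.22 to 0.08, adjusted p = 0.93). The call in Cbl-/- was lost without WT 1 (-0.26), WT 2 (-0.27), Cbl-/- 1 (-0.27) or Cbl-/- 3 (-0.23). Fcer1g had 4.79 ± 0.39 times the summed level per kilobase of Fcgr1, Fcgr3 and Fcgr4 in WT, 4.65 ± 0.34 in Cbl-/- alone, 4.67 ± 0.28 under the label Cbl-b-/- and 5.20 ± 0.57 under DKO, and these ranges overlapped.

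Fcgrt lies on chromosome 7 at 45092990 to 45103851 (minus strand; ENSMUSG00000003420). It was at 21.1, 21.8 and 19.5 CPM in WT and at 23.2, 24.2 and 22.5 in Cbl-/-. The libraries labelled Cbl-b-/- had 19.5, 19.8 and 22.7 CPM and those labelled DKO 9.84, 11.01 and 8.95. All libraries labelled DKO lay below the other 9 (log2 fold change -1.07, SE 0.09, adjusted p = 1.8e-07). The Cbl-/- libraries lay above the WT libraries but did not pass (0.16, -0.03 to 0.35, adjusted p = 0.33), nor did those labelled Cbl-b-/- (-0.02, -0.20 to 0.17, adjusted p = 0.99). B2m, which encodes the light chain of FcRn and of MHC class I molecules, went the other way: it rose from 1395 ± 44 to 2365 ± 368 CPM in the libraries labelled DKO (0.76, SE 0.09, adjusted p = 5.7e-06).

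The direct comparisons among knockouts set the libraries labelled DKO apart from both single knockouts. Against Cbl-/-, 5 of 6 genes passed (2 higher, 3 lower; 29.6% of all genes passed, 16.0% higher and 13.6% lower): Fcgr1 at 0.68, Fcgr4 at 0.84, Fcgr3 at -0.64, Fcgrt at -1.23 and Fcgr2b at -0.36. Against the libraries labelled Cbl-b-/-, 6 of 6 passed (2 higher, 4 lower; 33.2% of all genes, 17.7% higher and 15.6% lower): Fcgr1 at 0.79, Fcgr4 at 1.01, Fcgr3 at -0.91, Fcgrt at -1.06, Fcgr2b at -0.55 and Fcer1g at -0.24. Between the single knockouts 1 of 6 passed (7.37% of all genes, 3.25% higher and 4.12% lower), Fcgr3, higher in the libraries labelled Cbl-b-/- by 0.27 (SE 0.07, adjusted p = 0.021). That call was lost without Cbl-/- 1 (0.26), Cbl-/- 2 (0.29), Cbl-/- 3 (0.27) or Cbl-b-/- 2 (0.23). Fcer1g had 0.20 there with adjusted p = 0.091, and passed without DKO 2 or DKO 3 (0.20 each) or with those genotypes alone in the fit (0.21). Against Cbl-/- the call for Fcgr2b was lost without Cbl-/- 1 (-0.34), Cbl-/- 2 (-0.35), DKO 1 (-0.28) or DKO 2 (-0.34), and against Cbl-b-/- that for Fcer1g without Cbl-b-/- 1 or DKO 1 (-0.21 each) and with those genotypes alone in the fit (-0.24, adjusted p = 0.061).

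The effects of the single knockouts did not add up to that of the libraries labelled DKO for 5 of the 6 genes (2 above the sum, 3 below; 15.7% of all genes departed from it, 8.39% above and 7.28% below). The contrast took both single-knockout effects from that of DKO, each against WT, on the log2 scale. Fcgrt departed by -1.22 (SE 0.13, adjusted p = 7.5e-06), Fcgr2b by -0.99 (SE 0.16, adjusted p = 5.4e-04) and Fcgr3 by -0.58 (SE 0.10, adjusted p = 6.1e-04). Fcgr4 lay above the sum by 0.87 (SE 0.14, adjusted p = 3.7e-04) and Fcgr1 by 0.66 (SE 0.12, adjusted p = 0.0011). Fcer1g departed by 0.03 (-0.17 to 0.24, adjusted p = 0.86).

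Fcgr2b, Fcgr4, Fcgr3 and Fcer1g lie in this order within 276 kb of chromosome 1 (170958617 to 171234365), and neighbours in the cluster moved in opposite directions. Fcgr4 rose there by 0.98 in the libraries labelled DKO while Fcgr3, the next tested gene, fell by 0.97. Of the 5 other tested genes in this span, 1 rose there and 4 did not pass: Sdhc, a subunit of mitochondrial complex II, at 0.36 (SE 0.06, adjusted p = 8.2e-05). Over all genes tested, 35.4% passed in the libraries labelled DKO, 9.87% in Cbl-/- and 0.489% with the label Cbl-b-/-. By edgeR's test 0 of these 5 passed in Cbl-/- (0 at an unadjusted p under 0.05) and 0 in the libraries labelled Cbl-b-/- (1 at an unadjusted p under 0.05).

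**Figure D4:**
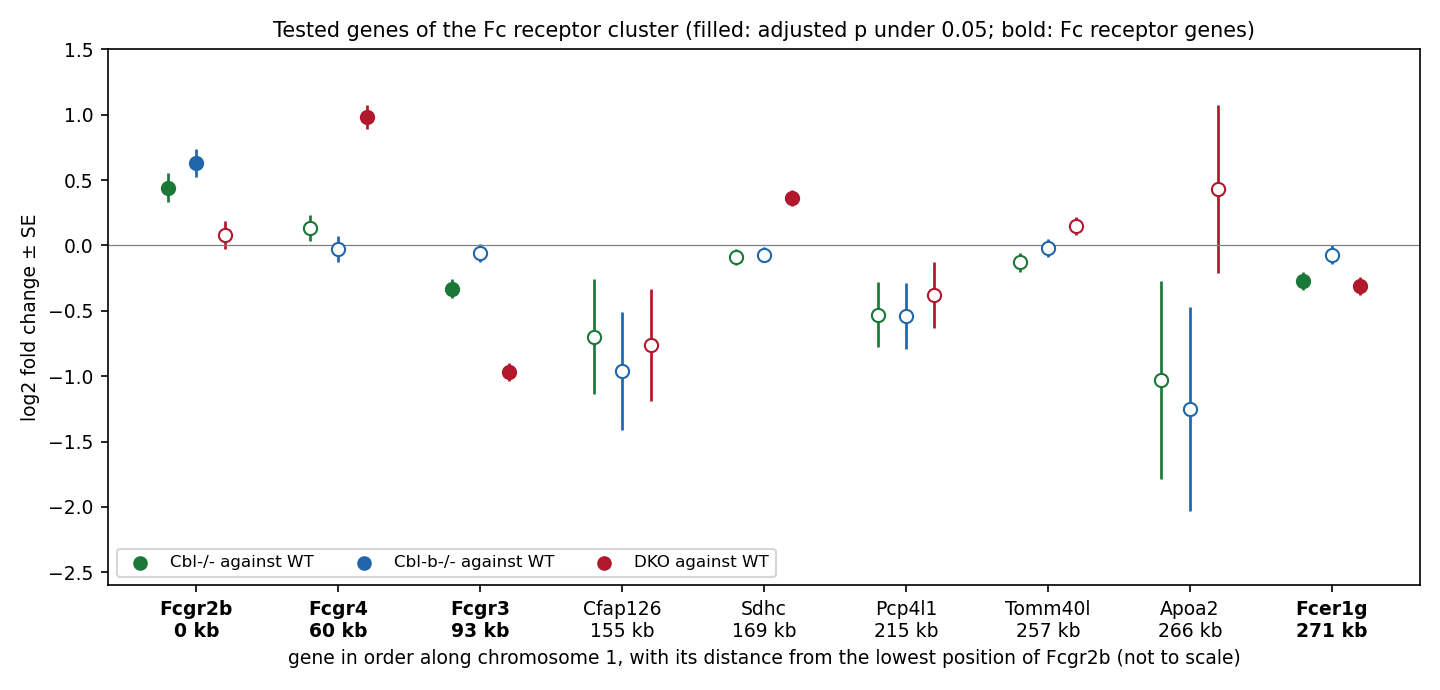
Log2 fold change ± SE against WT (vertical axis) of the 9 tested genes of the chromosome 1 cluster, in genomic order with their distance in kilobases from the lowest position of Fcgr2b. Filled points have an adjusted p under 0.05 and bold names are Fc receptor genes. Fcgr4 and Fcgr3 stand side by side at 0.98 and -0.97 in DKO.

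Genes that act with these receptors were described by lists, whose counts stand beside the share of all genes tested that passed. Against WT that share was 9.87% in Cbl-/-, 0.489% with the label Cbl-b-/- and 35.4% with the label DKO. The first list holds the kinases and adaptors of ITAM signalling. All 28 were tested. In Cbl-/- 6 rose, 0 fell and 22 did not pass (median log2 fold change 0.01), among them Src (1.55) and Fgr (0.91), kinases of 1 family, and Malt1 (0.42), which carries signals to NF-kB. Without DKO 3 in the fit 10 passed in Cbl-/-. DKO as labelled had 10 that rose and 5 that fell, while 13 did not pass (median 0.07). Fgr rose there by 1.70 (SE 0.10), from 15.3 ± 0.66 to 49.9 ± 4.4 CPM, Src by 2.29 and Malt1 by 0.71. The largest decrease was that of Card9 (-0.24), an adaptor downstream of Syk, whose call was lost without WT 1 (-0.23), WT 2 (-0.17) or DKO 3 (-0.18), or with both genotypes alone in the fit (adjusted p = 0.099). Fgr rose by 0.48 in the libraries labelled Cbl-b-/- (adjusted p = 0.033), where the other 27 did not pass. That call was lost without any of WT 1 (0.44), WT 2 (0.51), WT 3, Cbl-/- 1, Cbl-/- 2, Cbl-/- 3 (0.48 each), Cbl-b-/- 1 (0.46) or Cbl-b-/- 2 (0.37), with the compared genotypes alone (adjusted p = 0.07) and by limma voom (adjusted p = 0.06).

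The list of inhibitory receptors, phosphatases and other brakes on signalling includes genes that act with Fcgr2b, and 19 of its 20 genes were tested. Of these, 9 rose, 2 fell and 8 did not pass under the label DKO (median 0.14). Inpp5d, which encodes SHIP1, fell by 0.32 (SE 0.07, adjusted p = 0.0015), from 427 ± 42 to 343 ± 22 CPM. The phosphatase SHP-1 gene Ptpn6 rose by 0.32, the ITIM receptor genes Clec12a and Pirb by 0.82 and 0.36, and Pecam1, low throughout, by 2.56 to 1.34 ± 0.24 CPM. In Cbl-/- Pirb rose by 0.20 and 18 did not pass (median 0.10), though 7 passed without DKO 3, 2 without Cbl-b-/- 2, Cbl-b-/- 3 or DKO 2, and 0 without WT 1, WT 2 or Cbl-/- 2. The call for Pirb was lost without WT 1 (0.22), WT 2 (0.20), WT 3 (0.18), Cbl-/- 1 (0.19) or Cbl-/- 2 (0.18). With the label Cbl-b-/- 0 of 19 passed by edgeR's test (1 at an unadjusted p under 0.05), and 0 by DESeq2 or limma voom. Pirb belongs to a family of close copies, as does Pira2 below, so their counts are uncertain.

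Among other ITAM adaptors and the receptors that use them, 14 of 16 were tested. In Cbl-/- 4 rose, 3 fell and 7 did not pass (median 0.06), and of the 7 calls 4 were left without any one of WT 1, WT 3, Cbl-/- 1, Cbl-/- 3 or Cbl-b-/- 1. Pira2, an activating receptor that pairs with the Fcer1g chain, rose by 2.74 and Clec4e, the Fcer1g-coupled receptor Mincle, by 1.23, from 86.9 ± 6.3 to 204 ± 4.3 CPM. Clec5a, a receptor that signals through other ITAM adaptors, rose by 0.48 and the lipid receptor gene Trem2 fell by 0.33. Under the label DKO 5 rose, 2 fell and 7 did not pass (median -0.03): Clec4e at 1.79, Pira2 at 1.20, Sirpb1a at 0.85, and Clec4n, the Fcer1g-coupled receptor Dectin-2, at 0.85. Trem1 fell by 0.51, a call lost without WT 2 (-0.32) or with both genotypes alone (adjusted p = 0.051). Pira2 rose by 1.71 in the libraries labelled Cbl-b-/-, where 13 did not pass, and 2 genes passed there without Cbl-b-/- 1 or DKO 3.

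Among phagocytosis effectors, of 21 tested, 2 rose, 1 fell and 18 did not pass in Cbl-/- (median 0.00). Under the label DKO 3 rose, 3 fell and 15 failed the test (median 0.00), so 28.6% passed, against 35.4% of all genes. The number passing in Cbl-/- was 1 without WT 1 or WT 2, 5 without DKO 2 and 7 without DKO 3. Cybb, the catalytic subunit of the phagocyte NADPH oxidase, rose from 283 ± 7.5 CPM to 431 ± 14 in Cbl-/- (0.61, SE 0.07) and to 456 ± 43 in DKO as labelled (0.69, SE 0.07). Ncf4, another oxidase subunit, rose by 0.42 in the libraries labelled DKO. The phagosome motor gene Myo10 rose by 0.42 in Cbl-/-, a call lost without WT 1 (0.36) or WT 2 (0.35), and by 0.81 in DKO as labelled. Ncf1, an oxidase subunit, fell by 0.22 in Cbl-/-, a call lost without WT 1 (-0.21), WT 2 (-0.20), Cbl-/- 2 (-0.22) or Cbl-/- 3 (-0.21). It also fell by 0.22 in the libraries labelled DKO and passed there. Elmo1, a regulator of Rac, fell by 0.24 in the libraries labelled DKO. With the label Cbl-b-/- 0 of 21 passed by edgeR's test (1 at an unadjusted p under 0.05), DESeq2 or limma voom.

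In the list of the FcRn partner and recycling genes, B2m rose and Rab11fip5, an effector of the recycling GTPase Rab11, fell (-0.21) in the libraries labelled DKO, and 8 of 10 tested did not pass. The 20% that passed there stand beside 35.4% of all genes. The Rab11fip5 call had an adjusted p = 0.039 and was lost without WT 1 (-0.20), WT 2 (-0.18), DKO 2 (-0.22), DKO 3 (-0.12), Cbl-b-/- 1 or any Cbl-/- library (-0.21 each), or with both genotypes alone in the fit (adjusted p = 0.12). By edgeR's test, DESeq2 and limma voom 0 of 10 passed in Cbl-/- and with the label Cbl-b-/- (1 and 0 at edgeR's unadjusted p under 0.05), but without DKO 3 in edgeR's fit 2 passed in Cbl-/- and 4 in DKO. Of 12 other Fc receptor genes 3 were tested, and 0 passed with the label Cbl-b-/- by edgeR's test (0 at an unadjusted p under 0.05), DESeq2 or limma voom. Fcrls, a receptor-like gene of the same family, fell from 122 ± 24 CPM to 74.4 ± 3.0 in Cbl-/- (-0.71) and to 8.16 ± 1.1 in DKO as labelled (-3.89, SE 0.14, adjusted p = 3.6e-11). Trim21, the cytosolic IgG receptor, rose by 0.30 in the libraries labelled DKO.

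Of 11 transcription factors known to act on Fc receptor genes, all tested, 4 rose and 3 fell under the label DKO, and the other 4 did not pass (median 0.06). Irf1 rose by 0.45 and Irf9, a partner of STAT2, by 0.44, while the myeloid factor gene Cebpa fell by 0.73. In Cbl-/- Cebpb rose by 0.53 and Cebpa fell by 0.39 while 9 did not pass (median 0.01), and with the label Cbl-b-/- 0 of 11 passed by edgeR's test (2 at an unadjusted p under 0.05), DESeq2 or limma voom. Spi1, the gene of PU.1, was picked with its values known and was at 0.14 in DKO as labelled (adjusted p = 0.076).

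**Figure D5:**
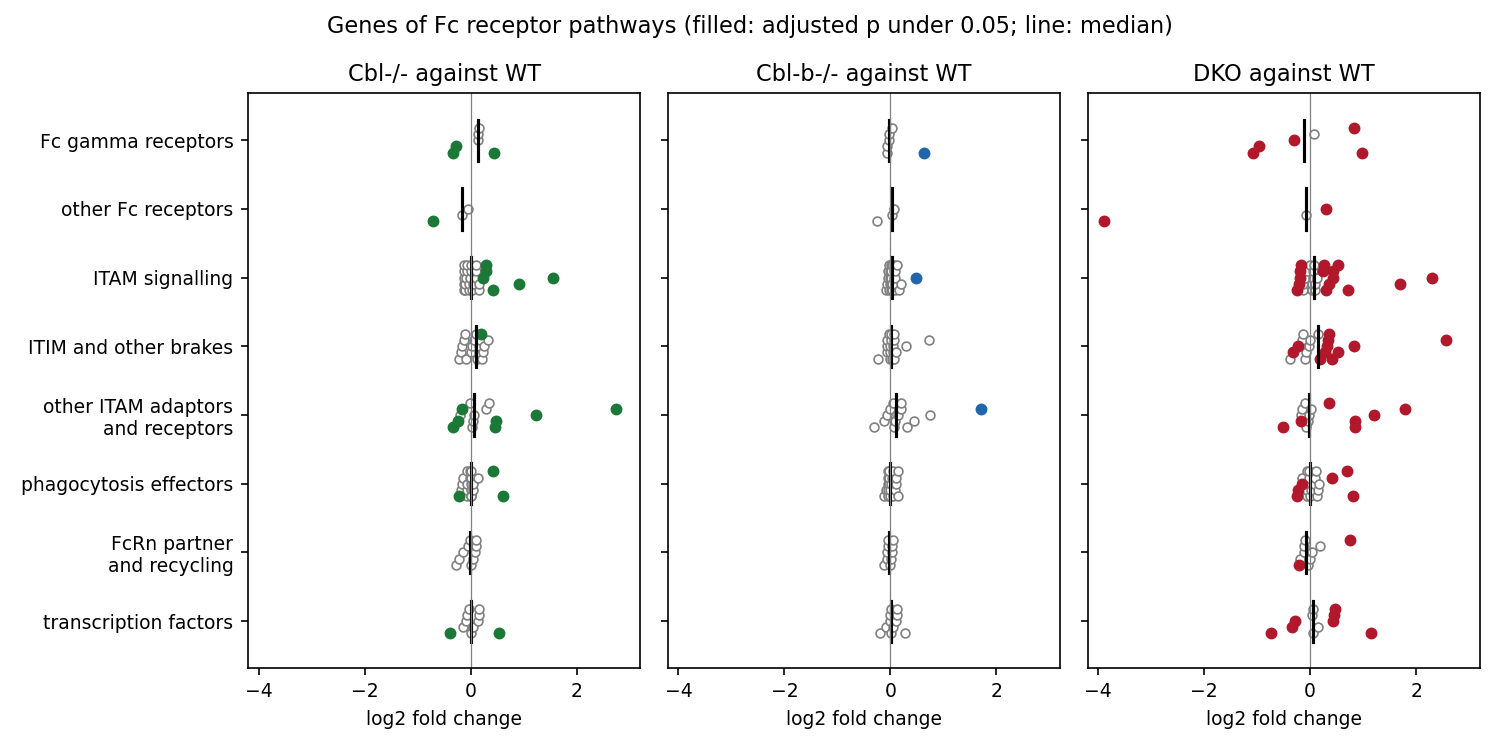
Log2 fold change against WT (horizontal axis) of every tested gene of the Fc gamma receptors and the 7 lists of related genes, 1 panel for each comparison. Filled points have an adjusted p under 0.05 and vertical lines are medians. Fcrls lies farthest left (-3.89) and Pecam1 farthest right (2.56) in DKO, and few points are filled in Cbl-b-/-.

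The genes whose pattern over the 12 libraries lay closest to each receptor gene were found among 8750 genes by the root mean square difference in centred log2 CPM, as a description. For Fcgr1 they were Sp110 and Parp12, both known as interferon-induced genes, and Ccdc86, at 0.10 each, where the spread of Fcgr1 itself was 0.35. For Fcgr4 they were Bcar3 (0.09), the antiviral enzyme gene Oas1a (0.10) and Stat2 (0.10), against a spread of 0.42. Stat2 had 79.3, 79.2, 74.6 and 139 CPM in WT, Cbl-/-, Cbl-b-/- and DKO as labelled. For Fcgrt, with a spread of 0.50, the complement genes C1qc (0.11) and C1qb (0.12) and Pdlim4 (0.11) were closest; C1qc had 413, 419.9, 379 and 195 CPM. Closest to Fcgr3, with a spread of 0.39, were Mmd (0.07), the interleukin 17 receptor gene Il17ra (0.08) and Rab3il1 (0.09). Matches to Fcgr2b were poorer (Emb at 0.15, Colec12 at 0.18 and Pla2g7 at 0.18, spread 0.30), and Fcer1g, with a spread of 0.15, was closest to Tmem86a, Zmynd8 and Bcl7c (0.06 each).

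Markers of other cells that carry Fc receptors were measured beside these changes. Counts of markers that passed, here and below, stand beside the shares of all genes tested. Those were 9.87% in Cbl-/-, 0.489% with the label Cbl-b-/- and 35.4% with the label DKO (19.1% higher, 16.3% lower). The table holds only genes with at least 1 count in WT 1, so a marker not in it may have had reads in other libraries. The summed levels leave such markers out. Of 12 neutrophil markers 7 were in the table (Camp, Elane, Ly6g, Mpo and Retnlg were not analysed here), and their summed level was 41.0 to 49.4 CPM in WT, 55.9 to 57.5 in Cbl-/- alone, 51.5 to 64.5 in the libraries labelled Cbl-b-/- and 90.6 to 117 in those labelled DKO. Of the 6 tested, 3 rose against WT in Cbl-/- and 3 did not pass (2 to 4 passed without each library in turn). Under the label DKO 4 rose against WT. S100a9 went from 0.717 ± 0.089 to 31.0 ± 7.2 CPM and Ngp from 0.572 ± 0.21 to 14.8 ± 1.2. S100a8 went from 1.16 ± 0.10 to 16.4 ± 6.0 CPM and Ltf from 0.771 ± 0.29 to 9.83 ± 0.83 in the libraries labelled DKO. Mmp8 fell there, from 31.4 ± 3.0 to 20.3 ± 3.2 CPM, and Csf3r, at 8.08 ± 1.5 against 10.1 ± 0.82 CPM, did not pass. The neutrophil chemokine receptor gene Cxcr2, too low to be tested, was at 0.101 ± 0.022 CPM in WT and 0.272 ± 0.074 in those libraries. Of 8 markers of natural killer cells 3 were in the table, and their sum was at most 0.454 CPM in every library. Of 8 B cell markers 4 were in the table, summing to 8.79 to 10.6 CPM in WT, 5.12 to 6.86 in Cbl-/- alone, 9.22 to 11.3 under the label Cbl-b-/- and 14.8 to 16.7 under DKO. Nearly all of it was Ighm. Cd79a was at 0.0187 ± 0.017 CPM in DKO and 0.112 ± 0.086 in WT, and Cd79b at 0.371 ± 0.15 and 0.376 ± 0.080.

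Mast cell and basophil markers, 3 of 8 in the table, summed to 0.786 to 0.999 CPM in WT, 1.07 to 1.496 in Cbl-/- alone, 0.597 to 1.31 under the label Cbl-b-/- and 3.47 to 4.18 under DKO. All 3 rose against WT under the label DKO (2 to 3 without each library in turn), with Kit at 1.73 ± 0.24 CPM there. Dendritic cell markers, 6 of 8 in the table, summed to 16.4 to 19.7 CPM in WT, 18.7 to 22.8 in Cbl-/- alone, 15.1 to 17.0 under the label Cbl-b-/- and 30.6 to 32.9 under DKO, most of it Itgax. Of the 3 tested, 2 rose under the label DKO and 1 did not pass (4 passed without Cbl-b-/- 2, where more were tested). Zbtb46 was at 0.381 ± 0.11 CPM in WT and 1.28 ± 0.026 under DKO. T cell markers, 3 of 8 in the table, summed to 0.714 to 0.929, 0.744 to 1.26, 0.958 to 1.24 and 1.24 to 1.98 CPM in the same order. Stromal and endothelial markers, 6 of 8 in the table, summed to 27.4 to 32.6, 29.9 to 32.3, 27.9 to 28.7 and 35.8 to 42.3 CPM, and Dcn was at 0 in every Cbl-/- and Cbl-b-/- library. Most of this sum was Kdr, at 24.3 to 26.1 CPM on average in each genotype. The collagen genes Col1a1 (2.06 on the log2 scale, from 1.68 to 6.81 CPM on average) and Col1a2 (1.98) and the pericyte receptor gene Pdgfrb (2.70) rose under the label DKO. Col1a1 fell to 0.312 CPM with the label Cbl-b-/- (-2.30, adjusted p = 0.013), where the number of these genes passing was 0 without Cbl-b-/- 1 or Cbl-b-/- 3 and 2 without WT 2. Of the 12 macrophage markers, 8 fell and 1 rose under the label DKO (median -0.44), with C1qa at -1.64 and Cd14 at 0.66, and 4 fell and 1 rose in Cbl-/-. The number passing in Cbl-/- was 1 without Cbl-/- 1 or Cbl-/- 3, 2 without WT 1, WT 2, Cbl-/- 2 or Cbl-b-/- 2, and 3 without Cbl-b-/- 1. Their summed level was 21669.7 to 23912 CPM in WT, 18799.7 to 19767 in Cbl-/- alone, 22083 to 24405 under the label Cbl-b-/- and 17916 to 21112 under DKO. The part of other cells, or of a shift within the macrophages, in the receptor changes was not tested.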

How the data were processed

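Raw read counts per gene were deposited by the authors for all 12 libraries, not normalized. Reads were mapped to build GRCm38.p5, per the submitters' processing notes. The aligner, the counter and any use of strand in counting are not stated in these sources. Libraries were TruSeq stranded mRNA, per the labels' protocols. Every gene in the table had at least 1 count in WT 1, so a gene without reads there has no values.

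Symbols matched 15506 of 15555 IDs. Positions and exon lengths are from GENCODE M21 (GRCm38). One edgeR 4.0.16 model in R 4.3.3 covered the 12 libraries: filterByExpr kept 12671 genes, TMM factors scaled the libraries, and the quasi-likelihood test compared genotype means. Adjusted p-values are Benjamini-Hochberg over these genes, with 0.05 as the threshold and fold changes of any size. Levels are CPM with TMM factors. The fit was tested on simulated counts. Replicates differed by more than sampling noise (chi-square per degree of freedom 3.93 to 55.3 over 12 pairs, the highest being both pairs with DKO 3). Library totals were 21048103 to 43946503 counts.

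The members, the 15 other lists and the tests were chosen with earlier results of these data known. All 6 receptor genes are named in every comparison. From each of 7 pathway lists up to 4 genes past the threshold with the smallest adjusted p are named per comparison with WT, and in DKO also the largest change in each direction; other genes were picked with their values known. Some genes that this rule names are not reported here. Alternatives were other scalings and filters, DESeq2 1.42.0, limma 3.58.1 voom, a replicate block, the compared genotypes alone, and each library left out.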

Additional observations from a re-analysis of the deposited data

Results flagged for a closer look

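For 5 of the 6 genes the effect of the Cbl-b-/- label differed with and without Cbl (log2 scale, n = 3 a group). The difference was tested in edgeR's quasi-likelihood fit, where 15.7% of all 12671 genes tested passed. It was 0.66 for Fcgr1, 0.87 for Fcgr4, -0.58 for Fcgr3, -0.99 for Fcgr2b and -1.22 for Fcgrt. All 5 calls held without each library in turn. The directions rest on the labels, which the Cblb counts do not check.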

How the results depend on the processing

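The log2 fold changes of the 6 genes in 7 comparisons were recomputed 834 times. In 808 the direction of a called gene and the side of the threshold held, 23 calls were lost, 3 were gained and 0 reversed. The number of genes passing stayed within 1.5 times in DKO against WT (5 to 5 without each library in turn), DKO against Cbl-/- (4 to 5), DKO against Cbl-b-/- (5 to 6) and the departure from the sum (5 to 5). It ranged from 1 to 3 in Cbl-/- against WT, where 1 passed without Cbl-/- 1, from 0 to 1 in Cbl-b-/- against WT and from 0 to 2 in Cbl-b-/- against Cbl-/-. With the compared genotypes alone it was 0 in Cbl-b-/- against WT and 2 in Cbl-b-/- against Cbl-/-; the cause was not tested.

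Over all genes, calls with the compared genotypes alone were 2753 in Cbl-/- against WT (1251 with all genotypes), 2760 in DKO against Cbl-b-/- (4211) and 1712 in Cbl-b-/- against Cbl-/- (934), and DESeq2 called 146 in Cbl-b-/- against WT (62). Without each library in turn they were 733 to 2206, 35 to 144 and 533 to 1903 in Cbl-/- against WT, Cbl-b-/- against WT and Cbl-b-/- against Cbl-/-. The highest of each came without DKO 3, and the lowest without WT 1, Cbl-b-/- 2 and Cbl-/- 1. Scaling by total counts gave 1773 higher and 2873 lower in DKO against WT (2423 and 2062 with TMM), 1362 and 2747 against Cbl-/- (2027 and 1720), 1543 and 3207 against Cbl-b-/- (2237 and 1974) and 711 and 1719 in the departure from the sum (1063 and 922). It moved the median of all genes in the departure from the sum from 0.00 to -0.11; the 6 genes kept their calls. With the longest transcript as length, 18 of 24 places in the order of levels were kept. The log2 ratio of activating receptors to Fcgr2b, DKO minus WT, was -0.52, and -0.60 to -0.43 without each library. Counts of list genes stayed within 1.5 times in 812 of 900 recomputations, with 34 above and 54 below.

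Same-numbered libraries did not deviate together (r from -0.05 to 0.05 over 18 pairs, and from -0.09 to 0.09 over 36 pairs with other numbers). No pairing by number was seen, but a weak one could be missed, and the labels do not state one. With the replicate number as a block, 3, 1, 5, 5, 6, 1 and 5 genes passed in the 7 comparisons, as without it. Of all genes, 4280 passed in DKO against WT with the block (4485 without).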
